A study of Mus musculus with 12 samples.

Results

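Ileal bile acid handling genes were examined in epithelial cells of the mouse small intestine after stroke. The group holds 7 of the 15855 genes in the table and was chosen by gene name, for the enterocyte steps of the enterohepatic circulation of bile acids: Slc10a2, Fabp6, Slc51a, Slc51b, Nr1h4, Fgf15 and Nr0b2. RNA was sequenced from 12 samples of live EpCAM+ cells, 7 from sham-operated and 5 from post-stroke mice, all collected 24 h after surgery. Male C57BL6/J mice aged 8 to 12 weeks underwent permanent middle cerebral artery occlusion (pMCAO), in which a filament blocks the middle cerebral artery, or sham surgery without the occlusion, both under ketamine and xylazine. The cells came from the whole small intestine, apart from a short piece at each end, so each sample mixed the proximal segments with the ileum. The samples carry replicate numbers within each group, described in the labels as biological replicates.

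Bile acids are taken up from the lumen of the ileum by the sodium-dependent transporter ASBT (Slc10a2), are bound in the cytosol by the ileal lipid-binding protein (Fabp6), and leave the cell for the portal blood through the heteromeric exporter OST-alpha/OST-beta (Slc51a and Slc51b). Inside the enterocyte they activate the nuclear receptor FXR (Nr1h4), whose known targets include Fabp6, both exporter subunits, the hormone Fgf15, which represses bile acid synthesis in the liver, and the corepressor SHP (Nr0b2). In the intestine most of these genes are strongest at the distal end, and the exporter subunits and FXR are also found further up.

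The libraries held between 7418730 and 31925579 counts. Library numbers in the titles run from 58 to 72 and were cut into runs of up to 4 consecutive numbers: the first run held sham replicates 1 to 3 and pMCAO replicate 1, the second held sham replicates 4 and 5 and pMCAO replicates 2 and 3, the third held sham replicate 6 and pMCAO replicates 4 and 5, and sham replicate 7 stood alone. These runs are not a labelled batch, and the labels give no collection day. The cut was chosen with an earlier result of these same data known, in which the libraries of lowest number stood apart. The 4 libraries of the first run stood apart from the others. They detected 13386 to 14712 genes against 15343 to 15766 in the 8 later libraries, 34.8% to 54.5% of their counts were mitochondrial ribosomal RNA against 14.6% to 35.2%, and the first principal component (37.7% of the variance) separated them. The epithelial markers were present in every library, with a summed level of 3422 to 7520 CPM (counts scaled to a common library size by TMM) over 6 genes. Most results below are therefore given for all 12 samples, with library run as a term, and within runs, and the sham libraries of the first run (early, n = 3) were also compared with the other sham libraries (later, n = 4).

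FXR binds DNA as a partner of RXR, typically at inverted repeats of an AGGTCA-like hexamer separated by a single base. RefSeq promoter windows of 300 bases, from 250 before to 50 after the annotated start, were matched for 6 of the 7 genes (GRCm38.p6), not for Fgf15. The letters AGGTCANTGACCT were found on either strand in 3 of 32851 windows of that length (0.00913%), none of them of these genes. The shorter letters GGTGANTGACC, which were chosen after the sequences had been read and overlap the first motif in part, were found in 15 windows (0.0457%), and Fabp6 and Slc51b are among them. The hexamer AGGTCA alone was found in 16.3% of all windows and in those of Slc51a, Slc51b and Nr1h4. The bases before the start of Fabp6 (chr11:43601563-43601812, minus strand) and Slc51b (chr9:65422774-65423023, minus strand) are given because the known FXR targets Fabp6 and Slc51b behaved differently across the libraries, as described below. Capitals mark the 11 bases that match GGTGANTGACC, at bases -221 to -211 before the start of Fabp6 and, read on the opposite strand, at -186 to -176 before that of Slc51b. The Fabp6 bases also hold aggtgaataacct, left in small letters because neither set of searched letters matches it. It is an inverted repeat of the AGGTCA-like hexamers AGGTGA and AGGTTA, separated by a single base. How often such a repeat occurs in the other windows was not counted. The RefSeq starts are not always the ends of the gene coordinates given below: those of Slc10a2, Slc51b and Nr1h4 lie inside them. By those coordinates, part of the Slc51b bases and of its marked match lies inside the gene.
Fabp6: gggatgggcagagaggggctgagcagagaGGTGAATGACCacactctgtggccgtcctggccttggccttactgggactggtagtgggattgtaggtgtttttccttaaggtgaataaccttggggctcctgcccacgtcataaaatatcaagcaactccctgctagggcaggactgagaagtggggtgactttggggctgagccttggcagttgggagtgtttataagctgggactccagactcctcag
Slc51b: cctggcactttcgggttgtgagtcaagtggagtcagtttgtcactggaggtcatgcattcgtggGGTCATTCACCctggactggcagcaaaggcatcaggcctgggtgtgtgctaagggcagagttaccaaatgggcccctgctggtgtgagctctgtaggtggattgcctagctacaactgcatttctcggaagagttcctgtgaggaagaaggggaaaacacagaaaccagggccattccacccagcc
A match is a description of the letters and shows no binding.

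The first comparison asked whether the ileal bile acid genes differed between post-stroke and sham-operated mice. None of the 6 genes that could be tested was called, against 0% of all 14462 genes tested. A gene was called at an adjusted p of at most 0.05 and a change of at least 2-fold (1 on the log2 scale) in limma-voom with Benjamini-Hochberg adjustment. Over all genes, 1219 had an unadjusted p under 0.05 in limma-voom, edgeR's quasi-likelihood test called 0 and DESeq2 called 70. With library run as a term, 47 of 14462 genes were called (0.325%), again none of these 6. Fgf15 had too few counts to be tested. In bulk RNA, fewer cells of a type and less RNA per cell cannot be told apart.

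**Figure D1:**
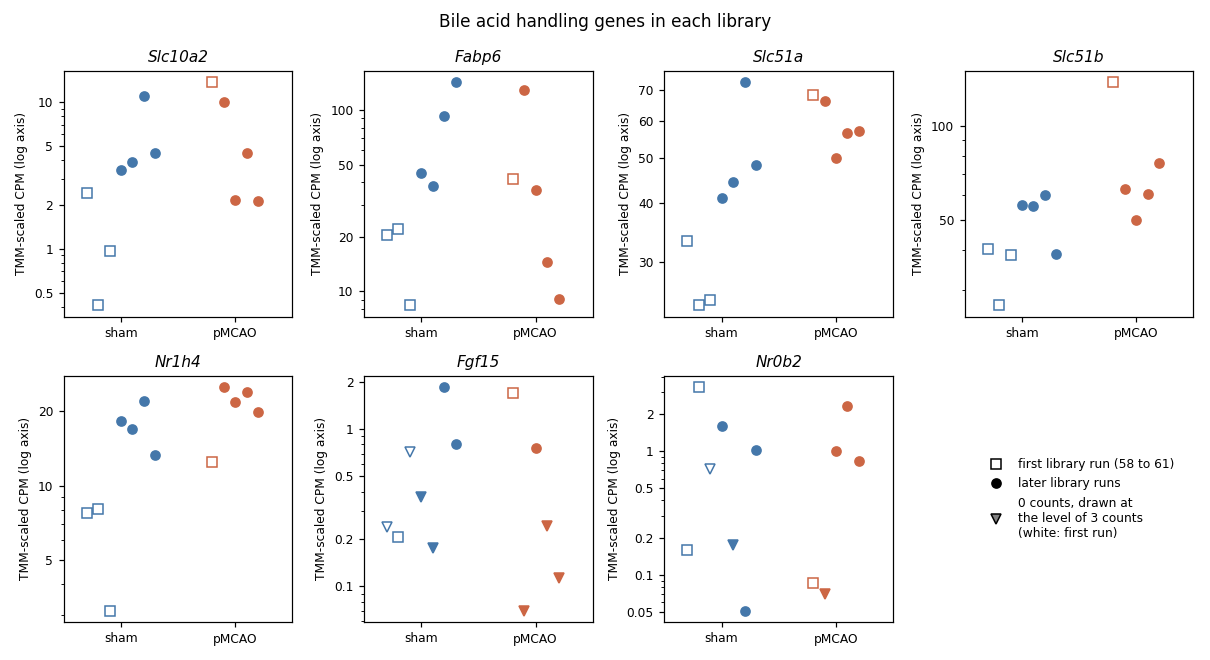
TMM-scaled CPM (log axis) of the 7 bile acid handling genes in 7 sham and 5 pMCAO libraries, each point 1 library. White squares are the first library run, filled circles are later runs, and triangles are libraries with 0 counts drawn at the level of 3 counts. The pMCAO and sham points overlap for every gene, while the white sham squares lie below the filled sham circles for Slc10a2, Fabp6, Slc51a and Nr1h4.

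Slc10a2, the uptake transporter (ENSMUSG00000023073, chr8:5083219-5105351, minus strand, GRCm38), had few counts. In the sham libraries its level was 0.411 CPM at the lowest, 3.45 at the median and 10.9 at the highest. In pMCAO replicates 1 to 5 it was 13.7, 9.92, 2.15, 4.48 and 2.12 CPM. The highest post-stroke library lay above all sham libraries, but the other 4 fell within the sham range. The fitted log2 fold change was 0.04 (SE 0.66, adjusted p = 0.990 in limma-voom), with a 95% interval of -1.37 to 1.45. The value changed with the fit. With group alone it was 0.72 in edgeR, 0.73 in DESeq2 and -0.68 without the first run, and the plain difference in mean log2 CPM was 0.91. With library run in the limma-voom model it was -0.29. Between 2 and 425 counts lay behind each library's value, and only 2 and 4 behind sham replicates 2 and 3.

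Fabp6, the cytosolic bile acid binding protein (ENSMUSG00000020405, chr11:43596049-43601540, minus strand), varied widely from library to library. The sham libraries ranged from 8.38 through a median of 38.4 to 143 CPM. The post-stroke libraries, in replicate order, held 41.5, 129, 36.1, 14.5 and 9.13 CPM. Both groups thus spanned more than an order of magnitude, and all 5 post-stroke values lay inside the sham range. The log2 fold change was -0.47 (SE 0.66, adjusted p = 0.861 in limma-voom; 95% interval -1.87 to 0.92). Within groups, the SD of its log2 CPM was 1.42, higher than in 98.7% of the 1467 genes of like level (within 0.5 on the log2 scale), whose median SD was 0.39. Slc51a and Slc51b, at similar levels, had SDs of 0.45 and 0.48. With group and library run both fitted as terms, the remaining SDs of Fabp6, Slc51a and Slc51b were 1.26, 0.42 and 0.56, which include any group difference that changed between runs. These were higher than in 99.9%, 83.8% and 95.2% of the genes of like level. These SDs are given as a description.

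Slc51a, the larger subunit of the basolateral exporter (ENSMUSG00000035699, chr16:32474504-32487879, minus strand), was 24.2 CPM at the lowest, 41.1 at the median and 72.7 at the highest in sham libraries. Post-stroke replicates 1 to 5 held 68.3, 66.1, 49.98, 56.6 and 57.1 CPM, all above the sham median and all below sham replicate 6. Its log2 fold change was 0.50 (SE 0.23, 95% interval 0.007 to 1.00), and p was 0.0471 before and 0.589 after adjustment in limma-voom. It was 0.33 with library run (unadjusted p = 0.139 in limma-voom) and 0.15 without the first run. An exact two-sided permutation of the group labels over the 792 possible splits gave p = 0.0455 for its mean log2 CPM, unadjusted for the 7 genes so tested, where the smallest possible value was 0.00126. Of its exonic length, 17.7% is shared with Pcyt1a on the opposite strand, and the strand setting of the counting was not given in the sources used here. Reads from that stretch cannot be told apart. Pcyt1a was higher than Slc51a throughout, at 75.8 to 190 CPM, and differed by 0.05 (SE 0.24) between the groups. Its difference of later from early sham libraries was -0.70 (SE 0.22, adjusted p = 0.0718 in limma-voom). The part of Pcyt1a reads in the values of Slc51a was not tested.

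Slc51b, the smaller exporter subunit (ENSMUSG00000053862, chr9:65412714-65422955, minus strand), had more post-stroke libraries above the highest sham library than any other of the 7 genes. Sham libraries ranged from 26.7 through 40.3 to 60.3 CPM, and post-stroke replicates 1 to 5 held 138, 62.8, 49.9, 60.8 and 75.9 CPM. Thus 4 of the 5 post-stroke libraries lay above the highest sham library, and the other lay within the sham range. Of these 4, pMCAO replicates 2 and 4 exceeded it only narrowly, at 62.8 and 60.8 against 60.3 CPM. The share of all genes with as many was not counted. The log2 fold change was 0.68 (SE 0.26, 95% interval 0.13 to 1.22), and the unadjusted p was 0.0177. After adjustment over all genes the p was 0.510 in limma-voom, and the same exact permutation test gave an unadjusted p = 0.0189. With library run in the model the difference was 0.56 (SE 0.25, unadjusted p = 0.0418, adjusted p = 0.367 in limma-voom). It rested in large part on pMCAO replicate 1: without this library it was 0.44 with group alone and 0.09 with library run. Rasl12 shares 12.8% of the exonic length of Slc51b and was low throughout, at 1.03 to 4.80 CPM.

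The exporter subunits were also compared within library runs. The difference in mean log2 CPM of Slc51b between post-stroke and sham libraries was 1.99 in the first run (1 post-stroke library), 0.01 in the second and 0.17 in the third. For Slc51a the corresponding values were 1.33, 0.43 and -0.35. For both subunits the largest of these differences was that of the first run, in which a single post-stroke library was set beside 3 sham libraries, and no run gave a test of its own.

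Nr1h4, which encodes FXR (ENSMUSG00000047638, chr10:89454234-89533585, minus strand), was 3.11, 13.4 and 21.97 CPM at the lowest, median and highest sham library. In post-stroke replicates 1 to 5 it was 12.5, 25.1, 21.8, 23.9 and 19.9 CPM, so that 2 of 5 exceeded all sham libraries. The fitted difference was 0.59 (SE 0.32, adjusted p = 0.628 in limma-voom). It was 0.29 with library run and, within runs, 1.10, 0.40 and -0.01. The pMCAO library of the first run was the lowest of its group.

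Fgf15, the enterokine released in response to FXR (ENSMUSG00000031073, chr7:144896531-144900953, plus strand), was close to the limit of detection. Sham replicates 1 to 7 held 0, 1, 0, 0, 0, 72 and 11 counts and pMCAO replicates 1 to 5 held 20, 0, 33, 0 and 0 counts. Its counts came from few libraries of either group. A count of 0 allows a level of up to 3 counts, which was 0.0700 to 0.719 CPM in the libraries with 0 counts. The groups overlapped, and an exact permutation test gave p = 1. With 0 counts in 7 of the 12 libraries its values were mostly ties, so this test could show little either way. Of its exonic length, 24.9% is shared with Gm26793.

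Nr0b2, the corepressor SHP (ENSMUSG00000037583, chr4:133553376-133556536, plus strand), was as sparse. Sham replicates 1 to 7 held 2, 16, 0, 13, 0, 2 and 14 counts, and pMCAO replicates 1 to 5 held 1, 0, 43, 29 and 22 counts. The log2 fold change was 0.20 with an SE of 1.46 (adjusted p = 0.977 in limma-voom) and a 95% interval of -2.90 to 3.29, so that changes of several fold in either direction could not be told from none. Libraries of like depth differed: pMCAO replicates 2 and 3, with 28124319 and 31925579 counts in all, held 0 and 43 of Nr0b2. Nr0b2 did not follow Fgf15 from library to library: sham replicate 6, highest for Fgf15, held 2 counts of Nr0b2, and pMCAO replicates 4 and 5, with no Fgf15, held 29 and 22.

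**Figure D2:**
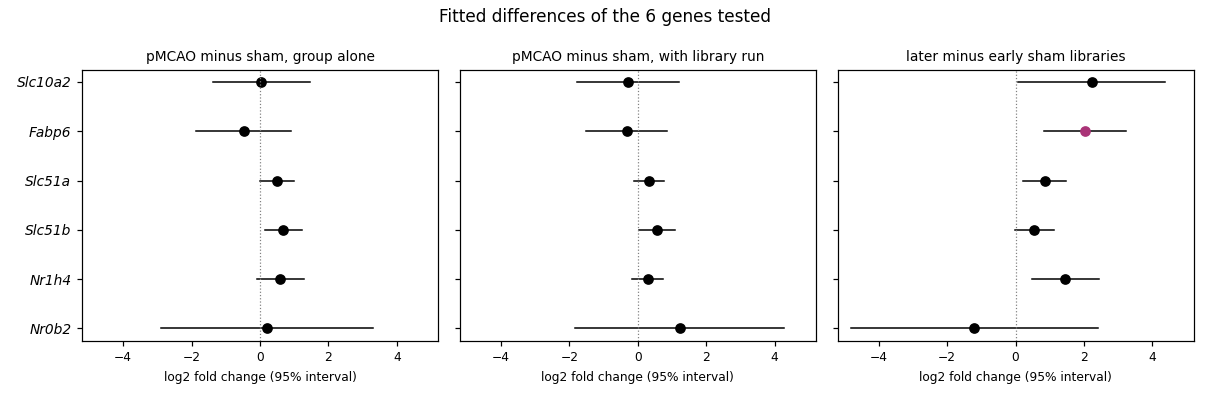
Log2 fold changes (points) with 95% intervals (lines) of the 6 genes tested, in pMCAO against sham with group alone, the same with library run in the model, and later against early sham libraries. The intervals of Slc10a2, Fabp6 and Nr0b2 are widest and cross 0 in both stroke comparisons, and only Fabp6 in the third panel is called (purple).

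Per kilobase of exon, Slc51b (median 78.5 CPM per kb over all libraries) and Fabp6 (77.7) were the strongest, followed by Slc51a (15.4), Nr1h4 (7.67), Slc10a2 (0.883), Nr0b2 (0.439) and Fgf15 (0). The order of Slc51b and Fabp6 was not fixed, since the ratio of their counts in a library ranged 30.5-fold across the 12 libraries. The counts of the exporter subunits stayed closer together, with a ratio of Slc51a to Slc51b that ranged 2.51-fold.

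The early and later sham libraries were compared next. Since this split was chosen with earlier results of these data known, its calls describe these libraries and are no independent test. Both sets of mice had the same surgery, so this comparison shows how far the genes differed with no stroke involved. Of 13498 genes tested, 746 were called (5.53%), and of the 6 bile acid genes tested, Fabp6 was called. Fabp6 was 2.03 higher on the log2 scale in later sham libraries (SE 0.56, adjusted p = 0.0439 in limma-voom), with 8.38, 20.5 and 21.98 CPM in the early and 38.4, 44.8, 92.3 and 143 in the later libraries. The call was lost when sham replicate 1, 2, 3 or 4 was left out (adjusted p = 0.243, 0.156, 0.159 and 0.0501 in limma-voom). Slc10a2 was 2.22 higher (SE 0.99, adjusted p = 0.171), Nr1h4 1.45 higher (SE 0.45, adjusted p = 0.0645), Slc51a 0.85 higher (SE 0.29, adjusted p = 0.0867) and Slc51b 0.55 higher (SE 0.27, adjusted p = 0.203), none of which passed the limma-voom test.

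Early and later sham values did not overlap for 4 of the 7 genes, Slc10a2, Fabp6, Slc51a and Nr1h4, all higher in the later libraries. Over all genes tested, later sham values lay wholly above early ones in 17.5% and wholly below in 10.5%. Other markers moved with the same split. Epithelial markers (6 of 6) summed to 5852 to 6342 CPM in early and 3422 to 5475 CPM in later sham libraries. Epcam (2119 to 2338 against 1012 to 1714 CPM), Vil1 and Krt8 were wholly lower in the later ones. Krt18 was wholly higher, at 116 to 168 against 235 to 581 CPM, and Cdh1 and Cldn7 overlapped. Goblet cell markers (4 of 4 present) summed to 3140 to 5631 CPM in early and 15695 to 37184 CPM in later sham libraries, and immune markers (5 of 5) to 23.5 to 33.3 against 63.7 to 194 CPM. Of the immune markers, only Ptprc separated, at 15.2 to 20.5 against 48.8 to 121 CPM, while Cd3e, Cd8a, Cd79a and Cd68 overlapped. The summed enterocyte markers (5 of 5) did not separate, at 12428 to 13518 against 10564 to 16758 CPM. Their members differed: Sis (791 to 1043 against 1416 to 2397 CPM) and Fabp2 (1729 to 2294 against 2716 to 6742 CPM) were wholly higher in later sham libraries. Alpi, Apoa1 and Anpep overlapped. Paneth cell markers (4 of 4) summed to 2.88 to 8.86 CPM in early and 8.64 to 60.5 CPM in later sham libraries. Of the colonocyte markers, Slc26a3 alone is in the table, at 8.01 to 14.1 against 30.3 to 63.3 CPM. The part of these shifts, and of the mitochondrial ribosomal RNA, in the result for Fabp6 was not tested. Stromal and endothelial markers (1 of 5 in the table) stayed at or under 5.23 CPM and liver markers (2 of 3) at or under 7.12 CPM in every library.

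Between the surgical groups, the summed goblet markers were 3140 to 37184 CPM in sham and 5129 to 39088 CPM in post-stroke libraries, and the summed enterocyte markers were 10564 to 16758 and 12578 to 33724 CPM. The immune sums were 23.5 to 194 and 37.7 to 128 CPM. All 3 ranges overlapped. The highest enterocyte sum, 33724 CPM, was that of pMCAO replicate 1, against 12428 to 13518 CPM in the sham libraries of its run, and this is also the library with most Slc51b. The epithelial sum was highest in it too, at 7520 CPM, and the part of these cell types in the values of Slc51a and Slc51b was not tested.

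Around the mean of their run, 3 of the 4 carriers were highest in the same libraries. Slc10a2 was highest of its run in pMCAO replicate 1, pMCAO replicate 2 and sham replicate 6, and these 3 libraries were also the highest of their runs for Fabp6 and Slc51a. The highest library of the third run was therefore the sham library, where Slc10a2 was 1.78 and Fabp6 2.99 higher on the log2 scale than the mean of its post-stroke neighbours. In the first run Slc10a2 was 3.64 and Fabp6 1.41 higher in the post-stroke library than in the sham libraries, and in the second 0.34 and 0.72 higher. Slc51b was highest in the same library in the first and second runs, but in pMCAO replicate 5 in the third. The difference between groups thus had the opposite sign in the third run for both Slc10a2 and Fabp6.

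**Figure D3:**
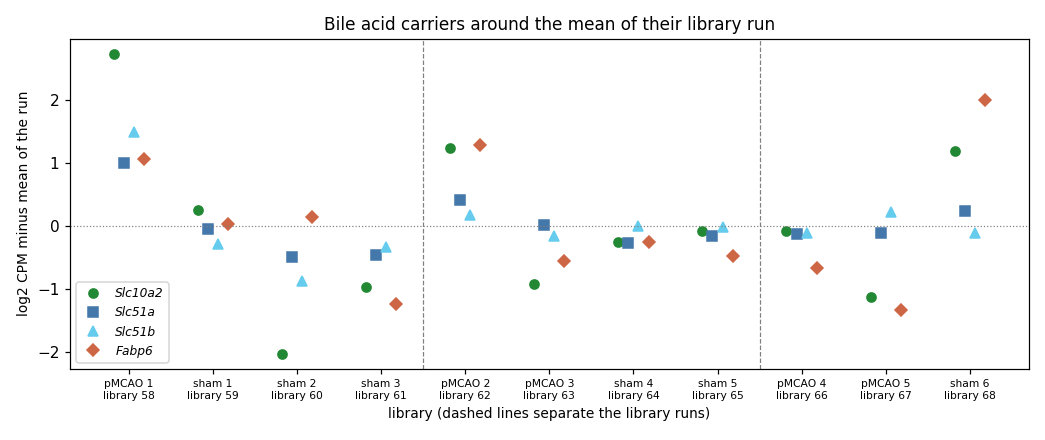
Log2 CPM of Slc10a2, Slc51a, Slc51b and Fabp6 in 11 libraries, minus the mean of the library run (sham replicate 7, alone in its run, is left out). pMCAO 1, pMCAO 2 and sham 6 are the highest of their runs for Slc10a2, Slc51a and Fabp6, and Slc10a2 and Fabp6 spread more widely than the exporter subunits.

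The genes whose pattern across the 11 libraries, with the mean of each run removed, was most like that of Slc10a2 were Psmc3 (Pearson r = 0.96), Klhdc8a (0.94), Acot7 (0.94), RP23-293K21.1 (0.93) and N6amt2 (0.92). For Fabp6 they were Tmem176a (0.97), RP23-286M3.5 (0.93), RP24-372J8.3 (0.92), Kit (0.91) and Fnbp1 (0.90). Each was picked as the highest of 14461 genes over few libraries that share runs, so these values describe the libraries and carry no test. Of the other bile acid genes, Slc51a came closest to Slc10a2, at rank 8 (0.91).

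The remaining genes of bile acid transport and metabolism were taken as a list of 12, of which 11 were tested. None was called with group alone, the median log2 fold change was 0.48 against 0.06 over all genes, and 10 of 11 were higher in post-stroke libraries, against 55.2% of all genes. Unadjusted p-values under 0.05 were found for 5 of the 11, against 8.43% of all genes, Cyp3a11, Malrd1, Abcg2, Klb and Cyp3a25, all with higher values after stroke. These genes encode 2 drug- and bile-acid-oxidising enzymes (Cyp3a11 and Cyp3a25), a membrane protein linked to Fgf15 production (Malrd1), an apical efflux pump (Abcg2) and the co-receptor of Fgf15 (Klb). Malrd1, Abcg2, Klb and Cyp3a25 fall outside the rule for naming genes and were named after their values were seen. With library run in the limma-voom model, 3 of the 11 had an unadjusted p under 0.05, against 12.7% of all genes. These were Cyp3a11, Malrd1 and Abcg2, while Klb and Cyp3a25 no longer did. Klb was low, at no more than 1.87 CPM in any library and 0 in the early sham libraries.

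With library run in the model 1 of the 11 was called: Cyp3a11 rose by 1.64 on the log2 scale (SE 0.31, adjusted p = 0.0332 in limma-voom). Its level was 47.4 to 195 CPM in sham and 135 to 462 CPM in post-stroke libraries, with medians of 128 and 274, so the groups overlapped. With group alone the difference was 1.25 (SE 0.40, adjusted p = 0.390 in limma-voom). Without the first run the fold change stayed at 1.62 but the call was lost (adjusted p = 0.356 in limma-voom). The call was also lost when sham replicate 1, 2, 3, 4 or 6 or pMCAO replicate 1 was left out, with fold changes from 1.37 to 1.69 (adjusted p = 0.0515 to 0.192 in limma-voom), in edgeR's quasi-likelihood test (1.68, adjusted p = 0.0625), and with library number as a linear term in limma-voom (1.17, adjusted p = 0.112). Cyp3a11 has close paralogs, and whether reads were split among them was not tested, so its value is given as uncertain. In the early against later sham libraries 1 of the 10 tested was called, Abcc3, a basolateral bile acid and conjugate exporter, which was 1.73 higher in the later libraries (SE 0.44, adjusted p = 0.0361 in limma-voom).

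A list of 11 nuclear receptors and partners included the bile acid sensors Vdr and Nr1i2 (PXR), and also Gpbar1 (TGR5), which is a membrane receptor. None was called among the 11 tested between the surgical groups or the 10 tested between early and later sham libraries, where Gpbar1 had too few counts. In post-stroke libraries 10 of 11 were higher, against 55.2% of all genes, with a median log2 fold change of 0.40. The smallest unadjusted p-values were those of Vdr, the vitamin D receptor that also senses lithocholic acid (0.56, SE 0.20, adjusted p = 0.470 in limma-voom), and Ppara, the fatty acid receptor (0.58, adjusted p = 0.605 in limma-voom). With library run 4 of 11 had an unadjusted p under 0.05, against 12.7% of all genes, Vdr, Nr1i2, Ppara and Nr1i3, all with higher values after stroke and none past adjustment. Their median against early sham libraries was -0.28 in the later ones, opposite in sign to the 1.15 of the 6 ileal genes.

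Because each sample pooled the length of the small intestine, 10 other genes of the distal and 14 of 15 genes of the proximal small intestine were read beside the bile acid genes. Neither list had a called gene between the surgical groups, with or without library run. Of the distal genes, 5 of 10 were higher after stroke (median 0.08), and those with an unadjusted p under 0.05 were Clec2h with a higher value and Osr2, Muc3 and Naaladl1 with lower ones. Of the proximal genes, 9 of 14 were higher (median 0.37), and those with an unadjusted p under 0.05 were Fabp1, the liver-type fatty acid binding protein, with a higher value and Adh6a and Cybrd1 with lower ones. Apart from Muc3 and Fabp1, these genes fall outside the rule for naming genes and were named after their values were seen.

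Summed levels of the region lists overlapped as well. The distal sums were 2600 to 5390 CPM in sham and 2497 to 4678 CPM in post-stroke libraries, and the proximal sums were 5856 to 13971 and 5892 to 22769 CPM. In the early against later sham libraries, the distal brush border mucin Muc3 was called lower in the later ones (-1.08, SE 0.27, adjusted p = 0.0324 in limma-voom). Of the proximal genes, Fabp1 (1.74, adjusted p = 0.0213) and Gsta1, a glutathione transferase (3.08, adjusted p = 0.0263), were called higher and Creb3l3, a lipid-regulating transcription factor, was called lower (-1.13, adjusted p = 0.0296) in the later sham libraries by limma-voom. All 3, Muc3 and Abcc3 lost their call without sham replicate 1, 2 or 3 (adjusted p = 0.0921 to 0.254 in limma-voom), Abcc3, Muc3 and Creb3l3 also without sham replicate 4 (adjusted p = 0.0560 to 0.0678), and Muc3 without sham replicate 7, where its change was -0.87. The summed distal list was 2600 to 4206 CPM in the later and 4595 to 5390 CPM in the early sham libraries, with Muc3 alone at 1028 to 2365 and 2748 to 3573 CPM. The mean log2 CPM over the 10 distal genes overlapped, at 6.64 to 7.55 in later and 6.54 to 7.25 in early sham libraries.

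**Figure D4:**
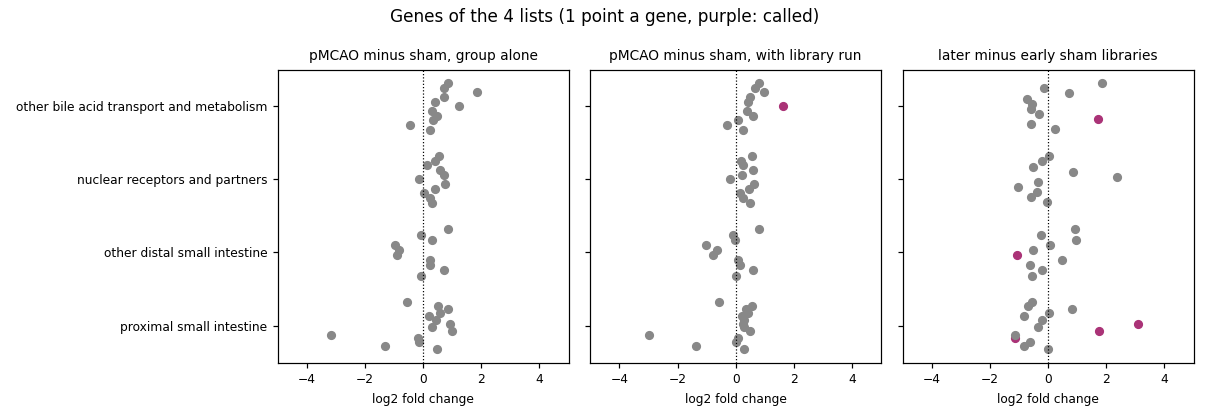
Log2 fold changes of single genes in 4 lists (bile acid transport and metabolism, nuclear receptors, distal and proximal small intestine) in the 3 comparisons, each point 1 gene and purple where called. No gene is called with group alone, Cyp3a11 is called with library run, and 5 genes of 3 lists are called between later and early sham libraries.

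The level of Fabp6 in single libraries was set beside the proximal list. The 2 libraries with most Fabp6, sham replicate 7 (143 CPM) and pMCAO replicate 2 (129 CPM), had the lowest mean log2 CPM over the 14 proximal genes, 6.33 and 6.30, against 6.77 to 7.19 in the other 10 libraries. The libraries with least Fabp6 were sham replicate 3, pMCAO replicate 5 and pMCAO replicate 4, at 8.38, 9.13 and 14.5 CPM, with proximal means of 6.91, 7.06 and 7.10. The distal list did not mark the same libraries: its mean was 6.84 and 6.92 in sham replicate 7 and pMCAO replicate 2, and highest in sham replicate 6 and pMCAO replicate 1 (7.55 and 7.53). Slc10a2 was highest in those last 2 libraries, at 10.9 and 13.7 CPM, but did not follow the distal mean elsewhere. It was lowest (0.411 CPM) in sham replicate 2, with the next highest distal mean (7.25), and 9.92 CPM in pMCAO replicate 2. Both groups were found at both ends of the Fabp6 range. Sham replicate 7 and pMCAO replicate 2 also had the highest summed goblet markers of the 12 libraries, 37184 and 39088 CPM. Their summed immune markers, 194 and 128 CPM, were the highest as well. The part of gut region and of cell types in the level of Fabp6 was not tested.

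**Figure D5:**
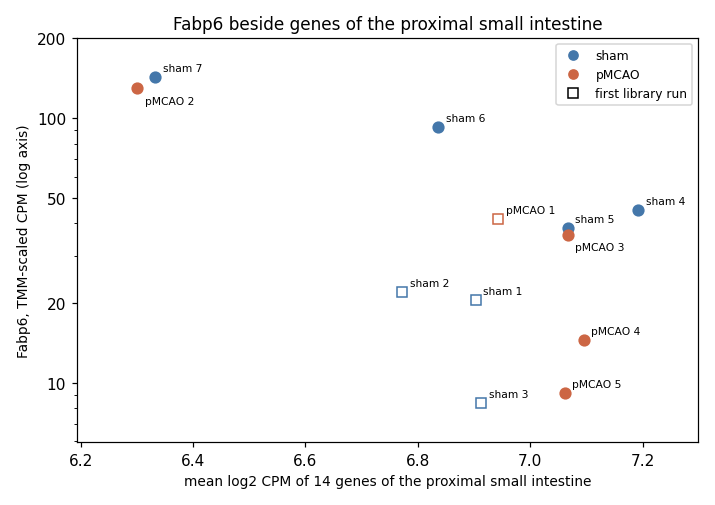
Fabp6 in TMM-scaled CPM (log axis) against the mean log2 CPM of 14 genes of the proximal small intestine, each point 1 library (blue sham, orange pMCAO, white squares first library run). Sham 7 and pMCAO 2 lie at the upper left, with 143 and 129 CPM of Fabp6 and proximal means of 6.33 and 6.30, and the remaining libraries lie between 6.77 and 7.19.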

How the data were processed

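Each sample was 1 library of sorted EpCAM+ cells. The authors aligned paired-end reads to GRCm38 with STAR and counted them per gene with featureCounts, and the deposited counts are not normalized. The deposited CPM equal these counts scaled by library total and were used as a check. The authors' columns of fold change, average expression, p-value and FDR were not used. Counts were fitted with limma-voom 3.58.1 after TMM scaling and filterByExpr (edgeR 4.0.16, R 4.3.3), which kept 14462 of 15855 genes. Models held group alone (the main comparison), group and library run, or, in sham libraries, early against later. The study's methods correct for collection day, which the labels do not give, so library runs of 4 numbers stood in. The scripts were tested on simulated counts. Log2 CPM used a prior count of 2. Alternatives were edgeR, DESeq2 1.42.0 size factors and test, no filter, mitochondrial genes left out, a linear library number, a replicate block and leaving out libraries. The members, lists and library runs were chosen with earlier results of these data known. Genes named were the 7 members, up to 4 called genes of each list (otherwise the 2 of smallest p) and the 5 genes most like Slc10a2 and Fabp6. Floors cover counting error only, and the intervals of fold changes come from the spread between libraries in limma-voom.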

Additional observations from a re-analysis of the deposited data

How the results depend on the processing

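None of the 6 genes tested was called between pMCAO and sham, with or without library run, under any alternative. With group alone, the genes called over all genes were 0 (0 to 17 with single libraries left out), 70 with DESeq2, 259 with a replicate block and 4 in replicates 1 to 5 without it. That last fit was added after seeing the data. Same-numbered samples correlated at -0.24 to 0.40, and for replicate 1 the same-numbered sham sample was the best match. The labels do not say whether equal numbers pair the samples. These correlations cannot decide it, since they also carry differences between library runs. With library run, 47 genes were called (4 to 86 with single libraries left out), 21 with edgeR, 97 with DESeq2, 156 with library number as a linear term and 0 without the first run. Between early and later sham libraries, 746 genes were called (26 to 1599), 1414 with edgeR and 1972 with DESeq2, and 1 ileal gene (0 to 2), 2 with edgeR and 3 with DESeq2. The added calls were Nr1h4 and, with DESeq2, Slc10a2. The calls of single list genes lost on leaving out libraries are given above.

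Directions changed for Slc10a2, Fabp6 and Nr0b2, whose libraries differ most. With group alone, Slc10a2 was -0.68 without the first run and -0.42 to 0.73 with single libraries left out. Fabp6 was 0.25 with the replicate block and 0.24 in replicates 1 to 5 without it. Nr0b2 was -0.069 with DESeq2, -0.11 in replicates 1 to 5 without the block, and -0.47 to 1.89 with single libraries left out. With library run, edgeR and DESeq2 gave 0.90 and 0.97 for Slc10a2, 0.0078 and 0.026 for Fabp6, and -0.30 and -0.48 for Nr0b2. Leaving out single libraries gave -0.85 to 1.29, -1.03 to 0.89 and -0.91 to 2.10. The cause was not tested. Fgf15 and Nr0b2 had 0 to 72 and 0 to 43 counts in a library, and their counts differed between libraries of like depth.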
